A study of Mus musculus with 6 samples.

Results

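The mitosis and spindle genes described here are 54 mouse genes that act in entry into mitosis, the spindle, the kinetochore, chromosome condensation and cytokinesis. They were listed by symbol and matched to the gene names of the count table, which held all 54 among its 16281 genes. All 54 also passed the filter on low counts that left 11698 genes for testing, and the lowest count of any of them in any sample was 417. CD8+ T cells of OT1 mice (C57BL/6 background, genotype Tg(TcraTcrb)1100Mjb), whose T cells bear a transgenic receptor that recognizes ovalbumin, were activated for 48 h with anti-CD3 and anti-CD28 antibodies (each at 2 μg/ml) and IL-2 (20 ng/ml) and then expanded in IL-2 for 3 days. In 3 samples (GSK), 0.5 μM GSK2879552, an irreversible inhibitor of the histone demethylase LSD1, was present during activation and expansion, and 3 samples (Veh) received vehicle. All 6 samples shared the strain, the transgene, the antibodies and IL-2. Every culture was activated and expanded in vitro, so the samples contain no resting control. The comparison addressed here is whether the RNA of the mitotic machinery differed between GSK-treated and Veh-treated cells.

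RNA-seq counts summed to between 18288447 and 18918811 in the Veh samples and to between 19149909 and 19846720 in the GSK samples. Levels are given as CPM, the depth-normalized count in which each count is divided by its sample's TMM-scaled total, and as mean ± SD over n = 3 samples. Differences are log2 fold changes, GSK over Veh, with their standard error (SE) and the adjusted p (edgeR quasi-likelihood F test, Benjamini-Hochberg over all genes tested). A gene is called higher or lower at an adjusted p under 0.05, and the stricter rule adds a fold change over 1.5, or 0.585 on the log2 scale. With 3 samples against 3, an exact permutation test (two-sided) of a single gene cannot give a p under 0.1. Kdm1a, which encodes LSD1, lay between 89.1 and 99.1 CPM in Veh and between 84.0 and 90.9 CPM in GSK, a level that does not report on the inhibition of the enzyme. The labelled cell type was checked on markers: the 8 CD8 T-cell markers in the table summed to between 3168 and 3310 CPM in Veh and between 3061 and 3245 CPM in GSK. This list includes genes that other T cells share, such as Cd3e and Lck. Single markers differed: Cd3e, Cd3d, Cd3g and Cd5 were lower in GSK, and Lck and Cd2 were higher, where 32.1% of all genes tested passed. Cd8a and Cd8b1, which encode the CD8 coreceptor, did not pass. The erythroid list summed to at most 0.272 CPM. The CD4 T-cell list summed to between 43.1 and 52.9 CPM in Veh and between 39.2 and 44.8 CPM in GSK, of which Zbtb7b made up 33.7 to 49.4 CPM and Foxp3 at most 4.99 CPM, and its defining marker Cd4 lay at or below 1.79 CPM. B-cell markers summed to between 5.89 and 8.0 CPM in Veh and between 5.63 and 6.98 CPM in GSK, and myeloid markers to between 3.05 and 4.73 CPM in Veh and between 1.46 and 2.94 CPM in GSK. The NK-cell list summed to between 196 and 215 CPM in Veh and between 422 and 456 CPM in GSK, nearly all of it Eomes, which CD8+ T cells also express, and its defining marker Ncr1 was at 0 in every sample but GSK 1. The part of these lists in the results below was not tested.

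Cells enter mitosis when the kinase CDK1, bound to a cyclin, is freed of inhibitory phosphates by CDC25 phosphatases. The chromosomes then condense, kinetochores on each centromere bind spindle microtubules, and a checkpoint holds back the anaphase-promoting complex until every chromosome is attached. Most of these genes are transcribed together late in the cell cycle, which makes their RNA a common readout of proliferation in activated T cells, whose clonal expansion depends on rapid division. In a culture, fewer cells in mitosis and less RNA per mitotic cell cannot be told apart from these counts.

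The 54 genes differed little between the groups. None passed both thresholds in either direction with edgeR or DESeq2, where edgeR's share over all genes tested was 6.32% (2.22% higher and 4.09% lower). At an unadjusted p under 0.05, 18 of the 54 differed, 5 higher and 13 lower, against 43% of all genes. At the adjusted p alone, 11 of the 54 passed (20.4%), against 32.1% of all genes tested. Those 11 comprised 3 higher in GSK, namely Bub3, Nuf2 and Mybl2 (5.56%, against 16.6% of all genes), and 8 lower in GSK, namely Cdc25b, Cenpa, Cenpe, Cenpf, Nusap1, Anln, Ncapd2 and Mki67 (14.8%, against 15.5% of all genes). The median log2 fold change of the 54 was -0.04 (quartiles -0.11 and 0.04), beside a median of -0.0039 over all genes tested, and 17 of them had positive and 37 negative values. DESeq2 gave the same 11 calls. The number called higher was 0 without Veh 1, GSK 1 or GSK 3, 1 without Veh 2 or Veh 3 and 6 without GSK 2, while the number called lower stayed between 6 and 9. Under upper-quartile scaling, which moved the median of all genes to -0.0388, the 3 higher calls were lost and 14 genes were called lower. In the annotation Cdc25b, Cenpa, Cenpe, Cenpf, Nuf2, Bub3 and Mki67 overlap no other gene, whereas Nusap1 overlaps Oip5 and n-R5s204, Anln overlaps 9530077C05Rik, Ncapd2 overlaps Scarna10, Mybl2 overlaps Mir7003 and Ccna2 overlaps Exosc9, and reads from such regions may be shared.

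The intervals put limits on these differences. Of the 54 genes, 50 had a log2 fold change within 0.2 of no change (92.6%, against 57.4% of all genes tested). For 52 of them the 95% interval of the fold change lay wholly inside the 1.5-fold limit (96.3%, against 71.7% of all genes), and the other 2 were Cdc25b and Pttg1. Leaving Pttg1 aside, the 42 genes that did not pass had log2 fold changes between -0.15 and 0.14, and their intervals lay between -0.33 and 0.27. The groups did not overlap for 21 of the 54 genes, with GSK above Veh in 6 and below Veh in 15, whereas 46.7% of all genes tested did not overlap (23.7% above and 23% below). Together the 54 genes took 1.27% to 1.32% of the counts in the Veh samples and 1.19% to 1.24% in the GSK samples, without overlap. The median over the 54 genes of the deviation of log2 CPM from its mean over the 6 samples was 0.01, -0.0045 and 0.05 in Veh 1 to Veh 3 and -0.01, -0.05 and 0.02 in GSK 1 to GSK 3, so the groups overlapped in this measure.

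**Figure D1:**
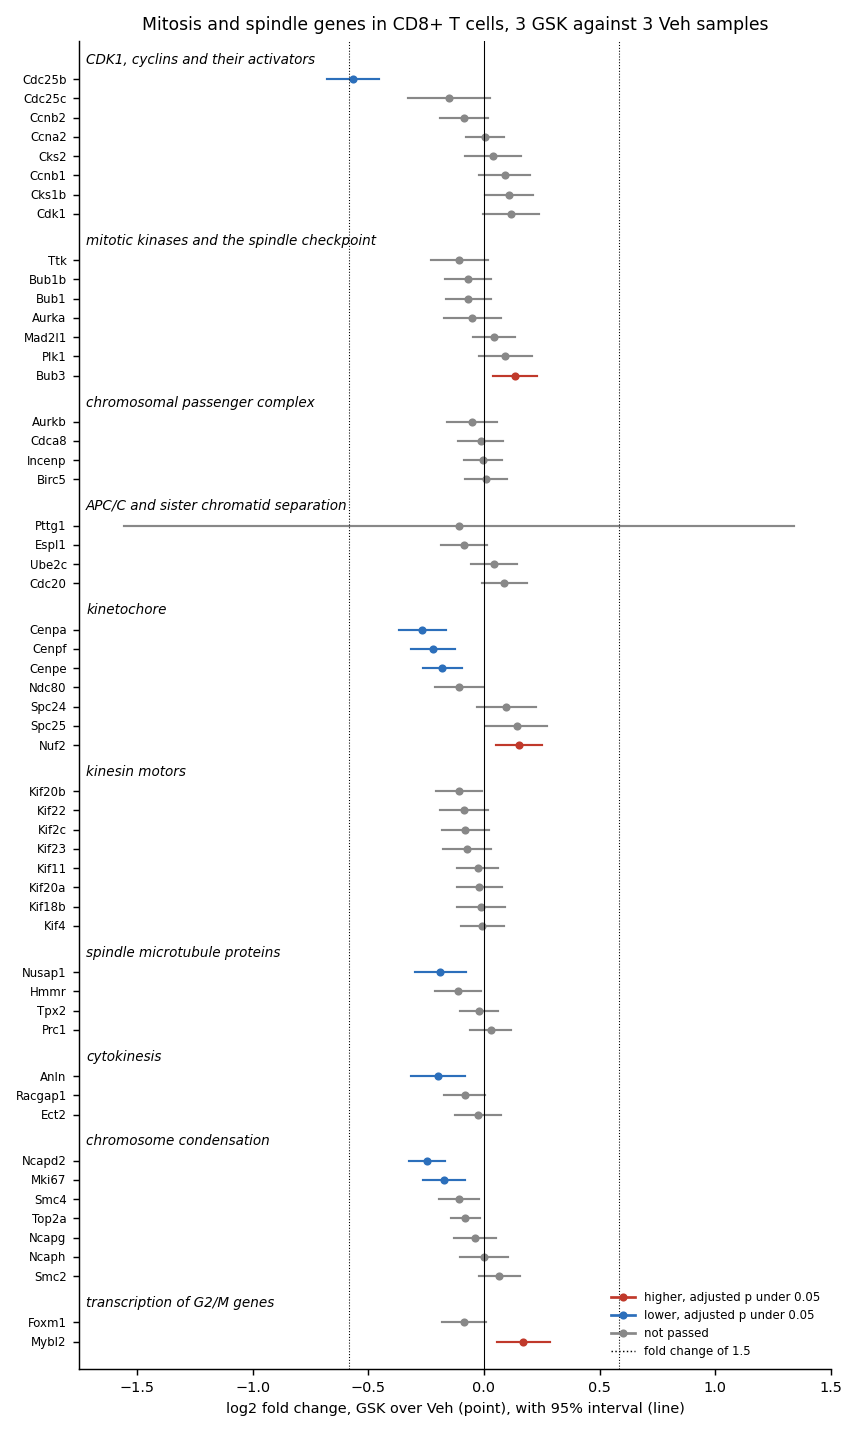
Log2 fold change, GSK over Veh, of each of the 54 genes by role (point) with its 95% interval (line), colored by the call at an adjusted p under 0.05, with dotted lines at a fold change of 1.5. Cdc25b at -0.57 lies apart from the rest, Pttg1 has the widest interval (-1.55 to 1.34), and the other points lie between -0.27 and 0.17.

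Promoters of late cell cycle genes are known for the cell cycle genes homology region (CHR), which binds the MuvB core of the DREAM and MYBL2 complexes, for CCAAT boxes, which bind NF-Y, and for E2F sites. RefSeq promoter windows on GRCm38.p6, from 250 bases before to 50 bases after the annotated start, were given for 45 of the 54 genes. The CHR core TTTGAA, searched on both strands, stood in 33 of these 45 (73.3%, 95% Wilson interval 59.0% to 84.0%), against 33.7% of 83 other mitosis genes, 13.8% of 29 DNA replication genes and 14.4% of the 9417 tested genes with a window. Within 50 bases of the start on either side it stood in 30 of the 45 (66.7%), against 25.3% of other mitosis genes, 6.9% of DNA replication genes and 3.91% of tested genes. CCAAT on either strand was found in 75.6%, against 56.6% of other mitosis genes, 62.1% of DNA replication genes and 43.5% of tested genes. It stood at 2 or more places in 51.1%, against 31.3% of other mitosis genes, 37.9% of DNA replication genes and 17.1% of tested genes. CCAAT and TTTGAA stood together in 64.4%, against 21.7%, 10.3% and 6.05% of these lists. The E2F-like letters GGCGGGA or TTGGCGC were found in 40% of the windows, against 37.3% of other mitosis genes, 48.3% of DNA replication genes and 27.7% of tested genes. The motifs can share bases, as CCAAT does with the E2F-like letters in Ccnb1 and Ect2 and with TTTGAA in Cdca8, and each is counted there. A match is a description of the sequence, not of binding. The calls were spread over genes with and without TTTGAA. Of the 33 with it, 1 was higher and 5 were lower (median log2 fold change -0.07), and of the 12 without it, 2 were higher and 3 were lower (median 0.0046). Over all genes tested, 16.6% were higher and 15.5% lower, and the difference by motif was not tested.

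The 150 bases before the start are shown for the member with the largest change (Cdc25b), 2 others that were lower (Cenpf and Mki67), the higher gene Mybl2, and 2 that did not pass (Cdk1 and Top2a), with the CHR core, the CCAAT box and the E2F-like letters of either strand in capitals.
Cdc25b promoter, chr2:131186798-131186947, plus strand: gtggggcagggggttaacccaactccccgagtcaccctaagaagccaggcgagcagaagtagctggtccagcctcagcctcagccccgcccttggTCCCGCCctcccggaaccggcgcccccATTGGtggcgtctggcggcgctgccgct
Cenpf promoter, chr1:189688087-189688236, minus strand: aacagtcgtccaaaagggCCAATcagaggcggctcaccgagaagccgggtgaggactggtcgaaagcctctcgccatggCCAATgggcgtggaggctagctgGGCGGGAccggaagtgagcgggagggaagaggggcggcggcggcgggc
Mki67 promoter, chr7:135716380-135716529, minus strand: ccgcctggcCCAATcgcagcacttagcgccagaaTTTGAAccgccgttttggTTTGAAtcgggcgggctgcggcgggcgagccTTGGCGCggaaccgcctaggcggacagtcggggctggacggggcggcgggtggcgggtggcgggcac
Mybl2 promoter, chr2:163054485-163054634, plus strand: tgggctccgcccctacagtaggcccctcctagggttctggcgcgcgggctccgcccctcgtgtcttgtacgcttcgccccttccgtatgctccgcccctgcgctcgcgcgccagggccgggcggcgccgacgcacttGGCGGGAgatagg
Cdk1 promoter, chr10:69352913-69353062, minus strand: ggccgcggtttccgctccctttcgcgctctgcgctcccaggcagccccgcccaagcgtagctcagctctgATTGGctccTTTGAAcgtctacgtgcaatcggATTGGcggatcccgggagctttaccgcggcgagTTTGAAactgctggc
Top2a promoter, chr11:99024190-99024339, minus strand: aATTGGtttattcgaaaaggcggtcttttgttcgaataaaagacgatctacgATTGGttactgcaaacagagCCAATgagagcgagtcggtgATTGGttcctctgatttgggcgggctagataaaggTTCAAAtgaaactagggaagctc
The printed windows of Cdc25b and Mybl2 lie inside the annotated spans of these genes (chr2:131186436-131198511 and chr2:163054327-163084688). They precede an internal annotated start, and the bases before the outer start were not searched. The Cdc25b window held no CHR core. It had a CCAAT box on the minus strand from 28 bases before the start and E2F-like letters from 55 bases. The Mybl2 window held only E2F-like letters, 13 bases before its start. Cdk1 held the CHR core at 71 and 15 bases and CCAAT boxes at 80 and 48 bases. Mki67 held the core at 116 and 98 bases, while Cenpf had it only after the start, from base 3.

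**Figure D2:**
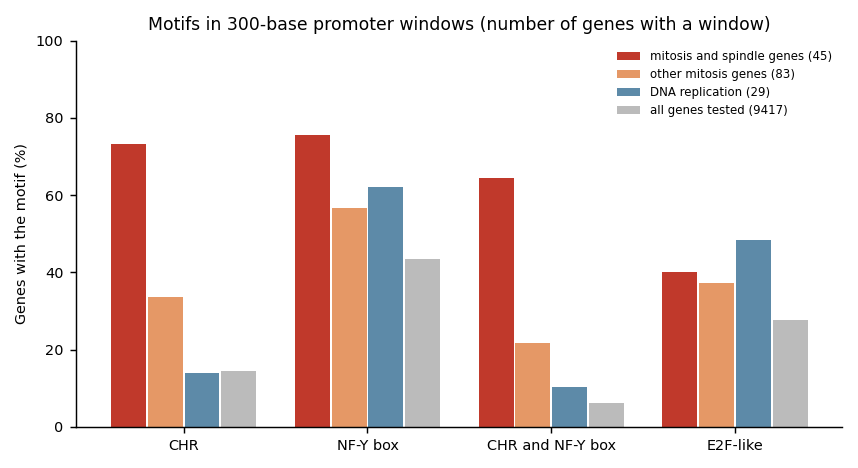
Share of genes (%) whose 300-base promoter window holds each motif, for the mitosis and spindle genes, other mitosis genes, DNA replication genes and all genes tested, with the number of genes with a window in parentheses. The NF-Y box is CCAAT, and the mitosis and spindle genes stand highest for the CHR (73.3%) and for CHR and NF-Y box together (64.4%).

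Among the regulators of CDK1, Cdc25b was downregulated (12.5%, against 15.5% of all genes tested) and the other 7 genes did not pass. Cdc25b, which encodes a phosphatase that activates CDK1 at the onset of mitosis (chr2:131186436-131198511), measured 272, 248 and 280 CPM in Veh (267 ± 16.9) and 174, 188 and 178 CPM in GSK (180 ± 6.84). The 3 GSK samples were low and the 3 Veh samples high, with no overlap. A log2 fold change of -0.57 ± 0.05 (SE, 95% interval -0.68 to -0.45, adjusted p = 1.16e-05) made it the largest change of the 54, a level 32.5% lower in GSK. The fold of Veh over GSK was 1.48, just short of 1.5, and the gene passed both thresholds with upper-quartile scaling (-0.60), without Veh 2 (-0.62) and without GSK 2 (-0.60). Its relative Cdc25c, another activating phosphatase, had a log2 fold change of -0.15 (adjusted p = 0.178). Cdc25a, the third of the family and not one of the 54, was higher in GSK (0.35 ± 0.09, adjusted p = 0.0139), named here after its value was seen. The differences among the 3 were not tested.

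Cdk1 itself, the kinase of mitotic entry, measured 151, 159 and 162 CPM in Veh and 171, 158 and 183 CPM in GSK, and the groups overlapped (0.12 ± 0.06 on the log2 scale, adjusted p = 0.127). Ccna2, the cyclin of S phase and early mitosis, was at 404, 404 and 410 CPM in Veh and 403, 395 and 424 CPM in GSK. Its log2 fold change was 0.0042 ± 0.04 (95% interval -0.08 to 0.09, adjusted p = 0.943), and its sign turned with scaling, to -0.03 with upper quartiles. The mitotic cyclin gene Ccnb1 measured 187, 194 and 200 CPM in Veh and 204, 194 and 220 CPM in GSK (0.09 ± 0.05, adjusted p = 0.196). Its paralog Ccnb2 measured 179, 169 and 187 CPM in Veh and 171, 162 and 170 CPM in GSK (-0.09 ± 0.05, adjusted p = 0.189). Neither B-type cyclin passed, and 46.9% of the 31-base words of the Ccnb1 transcript also occur in other annotated transcripts, so its counts are less certain. Cks1b and Cks2 encode small subunits that bind cyclin-dependent kinases. Cks1b measured 93.0, 99.7 and 97.0 CPM in Veh and 101, 104 and 107 CPM in GSK (0.11 ± 0.05, adjusted p = 0.106), without overlap of the groups. Cks2 measured 80, 70.8 and 74.8 CPM in Veh and 75.1, 76.2 and 80.2 CPM in GSK (0.04 ± 0.06, adjusted p = 0.642), with overlap. Shared 31-base words make up 23.7% of the Cks1b and 31.7% of the Cks2 transcript, so these counts are uncertain too. The same holds for Kif20a (32.6%), Cdc20 (28.7%), Ube2c (25.1%), Cdc25c (22.7%), Plk1 (19.2%), Kif4 (16.9%) and Ccna2 (16.5%).

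**Figure D3:**
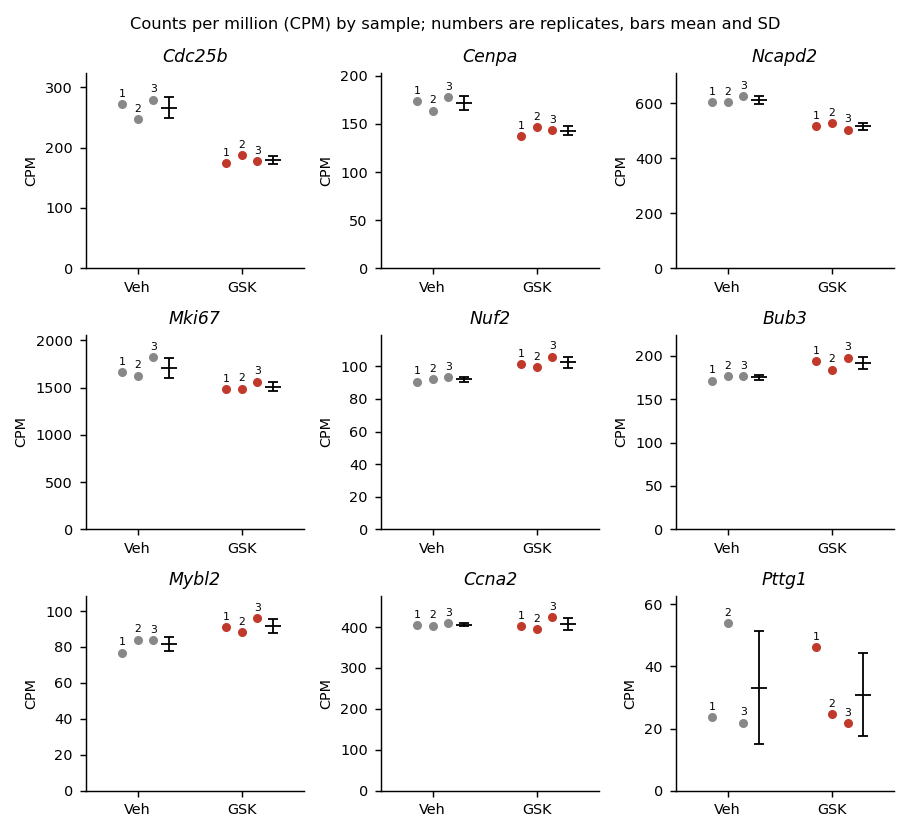
CPM in each of the 3 Veh and 3 GSK samples (numbered points) of 9 of the genes, with the mean and SD as bars and axes that start at 0. The groups are apart for Cdc25b, Cenpa, Ncapd2, Mki67, Nuf2, Bub3 and Mybl2, overlap for Ccna2, and in Pttg1 the samples Veh 2 and GSK 1 stand above the other 4.

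Of the 7 mitotic kinase and checkpoint genes, Bub3 was higher (14.3%, against 16.6% of all genes tested) and the other 6 did not pass. Bub3, whose protein carries checkpoint kinases to kinetochores, measured 171, 177 and 177 CPM in Veh (175 ± 3.14) and 194, 184 and 198 CPM in GSK (192 ± 7.06). The groups did not overlap, and the log2 fold change was 0.13 ± 0.04 (adjusted p = 0.0340). That call was lost with upper-quartile scaling (adjusted p = 0.11), with total counts only (0.0574), with the replicate number as a block (0.0685) and without any 1 sample other than GSK 2 (0.0696 to 0.125). Bub1b, which encodes the checkpoint protein BubR1, measured 230, 232 and 252 CPM in Veh and 227, 221 and 233 CPM in GSK (-0.07 ± 0.05, adjusted p = 0.283), with overlap. The remaining members, the kinase genes Plk1 (0.09), Aurka (-0.05), Ttk (-0.11) and Bub1 (-0.07) and the checkpoint gene Mad2l1 (0.04), had log2 fold changes in both directions.

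The chromosomal passenger complex, which corrects faulty attachments and guides cytokinesis, had log2 fold changes between -0.05 and 0.0093, and 0 of its 4 genes passed, also at an unadjusted p under 0.05. Aurkb, its kinase, measured 165, 164 and 173 CPM in Veh and 156, 156 and 172 CPM in GSK (-0.05 ± 0.05, adjusted p = 0.458). Incenp, its scaffold, measured 290, 296 and 294 CPM in Veh and 287, 292 and 299 CPM in GSK (-0.0040 ± 0.04, adjusted p = 0.945). Birc5 (survivin) had a log2 fold change of 0.0093 and Cdca8 (borealin) one of -0.01. The groups overlapped for all 4 genes, and the signs of Birc5, Incenp and Cdca8 depended on which sample was left out.

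None of the 4 genes of the anaphase-promoting complex and sister chromatid separation passed, also at an unadjusted p under 0.05. Ube2c, the ubiquitin-conjugating enzyme of the complex, measured 177, 178 and 181 CPM in Veh and 182, 175 and 194 CPM in GSK (0.04 ± 0.05, adjusted p = 0.513). Cdc20, its activator, had a log2 fold change of 0.09 (adjusted p = 0.157), and Espl1, the protease separase, one of -0.09 (adjusted p = 0.180). Pttg1 encodes securin, the inhibitor of separase, and had by far the widest spread of the 54. It measured 23.7, 54.1 and 21.9 CPM in Veh (33.2 ± 18.1) and 46.2, 24.7 and 21.7 CPM in GSK (30.9 ± 13.3). Veh 2 and GSK 1 stood apart from the other 4 samples, and the spread lay across the groups rather than between them. Its log2 fold change of -0.11 ± 0.54 had a 95% interval from -1.55 to 1.34 (adjusted p = 0.903), so differences in securin RNA within that interval are not excluded. The sign of the Pttg1 fold change turned without Veh 2 (0.44), GSK 2 (0.03) or GSK 3 (0.09).

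Of the 7 kinetochore genes, 3 were lower and 1 was higher, and of 34 further checkpoint and kinetochore genes 5 were lower and 1 was higher, where 32.1% of all genes tested passed. Cenpa, the histone H3 variant that marks the centromere (chr5:30666877-30674837), measured 174, 164 and 178 CPM in Veh (172 ± 7.14) and 138, 147 and 144 CPM in GSK (143 ± 4.62). The log2 fold change was -0.27 ± 0.05 (adjusted p = 1.07e-03), a level 16.9% lower. Cenpf, a large protein of the outer kinetochore, measured 250, 238 and 243 CPM in Veh and 209, 217 and 202 CPM in GSK (-0.22 ± 0.04, adjusted p = 2.15e-03). In both genes every GSK sample lay below every Veh sample. Cenpe, a kinetochore motor that carries chromosomes to the spindle equator, measured 272, 267 and 270 CPM in Veh and 242, 235 and 237 CPM in GSK (-0.18 ± 0.04, adjusted p = 3.76e-03). These 3 calls held without any 1 sample, with adjusted p up to 0.0121 for Cenpa, 0.0155 for Cenpf and 0.0197 for Cenpe.

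The NDC80 complex, the rod that grips the microtubule end, showed no common direction. Nuf2 measured 90.5, 92.2 and 93.3 CPM in Veh and 101, 99.6 and 106 CPM in GSK. It was higher in GSK without overlap (0.15 ± 0.05, adjusted p = 0.0240), a call that was lost with upper-quartile scaling (adjusted p = 0.0731) and without any 1 sample other than GSK 2 (0.0528 to 0.0859). Its partner Ndc80 had a log2 fold change of -0.11 (adjusted p = 0.108), and Spc24 and Spc25, which anchor the rod to the chromosome, had 0.10 (adjusted p = 0.223) and 0.14 (adjusted p = 0.0918).

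All 8 kinesin genes had negative log2 fold changes, between -0.11 and -0.0074, and none passed (1 at an unadjusted p under 0.05). Kif11, the motor that pushes the spindle poles apart, measured 410, 391 and 394 CPM in Veh and 391, 376 and 406 CPM in GSK (-0.03 ± 0.04, adjusted p = 0.651). Kif20b, a motor of late mitosis, measured 153, 146 and 146 CPM in Veh and 143, 132 and 138 CPM in GSK (-0.11 ± 0.05, adjusted p = 0.0949), the one kinesin whose groups did not overlap. The signs of Kif4, Kif18b and Kif20a turned with the sample left out.

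Among 4 spindle microtubule proteins, Nusap1 was lower (25%, against 15.5% of all genes tested). This protein bundles microtubules around the chromosomes, and its gene measured 246, 223 and 255 CPM in Veh and 207, 209 and 220 CPM in GSK (-0.19 ± 0.05, adjusted p = 0.0143). The groups were separate, but the call was lost without Veh 1 (adjusted p = 0.0575), Veh 3 (0.0801) or GSK 1 (0.0763), each with the same sign. Tpx2, which activates Aurora A on the spindle, measured 301, 299 and 301 CPM in Veh and 296, 288 and 303 CPM in GSK (-0.02 ± 0.04, adjusted p = 0.691). Prc1, a bundler of the central spindle, had a log2 fold change of 0.03 and Hmmr one of -0.11 (adjusted p = 0.0770).

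In cytokinesis, Anln was lower (33.3%, against 15.5% of all genes tested) and the other 2 genes did not pass. Anln encodes anillin, a scaffold of the contractile ring, and measured 71.4, 79.1 and 74.2 CPM in Veh and 63.6, 66.7 and 65.4 CPM in GSK (-0.20 ± 0.05, adjusted p = 0.0138). Its groups did not overlap, and the call was lost without Veh 2 (adjusted p = 0.0680) or GSK 1 (0.0649). Racgap1, a component of centralspindlin, measured 337, 326 and 340 CPM in Veh and 302, 322 and 322 CPM in GSK (-0.08 ± 0.04, adjusted p = 0.139), also without overlap. Ect2, the activator of RhoA at the division plane, had a log2 fold change of -0.03.

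Of the 7 chromosome condensation genes, Ncapd2 and Mki67 were lower (28.6%, against 15.5% of all genes tested). Ncapd2, a subunit of condensin I (chr6:125168007-125192100), measured 606, 605 and 628 CPM in Veh (613 ± 13.0) and 517, 528 and 504 CPM in GSK (517 ± 12.0). The log2 fold change was -0.25 ± 0.04 (adjusted p = 3.11e-04), the groups were far apart, and the call held without any 1 sample (adjusted p up to 4.09e-03). The other condensin subunits of this group did not follow it past the threshold, with Smc2 at 0.07, Smc4 at -0.11 (adjusted p = 0.0577), Ncapg at -0.04 and Ncaph at -0.00020. Outside this group, the condensin II subunit Ncaph2 was also lower (-0.18, adjusted p = 0.00384), while Ncapd3 (-0.10) and Ncapg2 (-0.04) did not pass.

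Mki67 encodes Ki-67, the nuclear protein that coats mitotic chromosomes and serves as a marker of dividing cells (chr7:135689784-135716450). It measured 1665, 1626 and 1822 CPM in Veh (1704 ± 104) and 1484, 1488 and 1562 CPM in GSK (1511 ± 43.9). All 3 GSK samples lay below all 3 Veh samples, by 11.3% on average in the fit (log2 fold change -0.17 ± 0.04, adjusted p = 7.74e-03), and the call held without any 1 sample, with adjusted p up to 0.0467. By flow cytometry, the study reported no drop in Ki-67-positive mouse CD8+ T cells with LSD1 inhibitors. That share of protein-positive cells is a different measure from the RNA level. The study also reported a larger share of mouse cells in late division rounds with LSD1 inhibitors, after a shorter culture. In human CD8+ T cells it reported a lower share of Ki-67-positive cells with GSK2879552. Top2a, the topoisomerase that untangles sister chromatids, measured 1561, 1541 and 1558 CPM in Veh and 1476, 1439 and 1493 CPM in GSK. Its groups did not overlap either, and its log2 fold change of -0.08 ± 0.03 did not pass (adjusted p = 0.0505). It passed with upper-quartile scaling (0.0117), total counts only (0.0194) and a filter of at least 50 counts (0.0299), and not with DESeq2 (0.0996), RLE size factors (0.0510), no filter (0.0925), the replicate block (0.0951) or any 1 sample left out (0.0515 to 0.143).

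Of the 2 transcription factor genes that drive late cell cycle genes, Mybl2 was higher and Foxm1 did not pass, where 16.6% of all genes tested were higher. Mybl2, the B-Myb factor that joins MuvB, measured 76.9, 84.1 and 83.7 CPM in Veh (81.5 ± 4.02) and 91.2, 88.3 and 95.9 CPM in GSK (91.8 ± 3.82). It was higher in GSK without overlap (0.17 ± 0.05, adjusted p = 0.0281), a call lost with upper-quartile scaling (adjusted p = 0.0728) and without Veh 1 (0.126), GSK 1 (0.0845) or GSK 3 (0.0952), and 25.3% of its 31-base words recur in other transcripts. Foxm1, which binds promoters of mitotic genes through MuvB, measured 169, 160 and 165 CPM in Veh and 150, 157 and 158 CPM in GSK (-0.09 ± 0.04, adjusted p = 0.151). Its GSK samples lay below its Veh samples. The difference between the 2 genes was not tested.

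Compared per kilobase of the principal transcript, levels in Veh ranged from 14.6 CPM per kb for Cdc25c to 297 for Top2a, with a median of 54.5. After Top2a, the highest were Birc5 at 186, Ube2c at 185, Mki67 at 169 and Smc4 at 149 CPM per kb, and the same 5 genes led in GSK, where Ube2c (190) stood above Birc5 (187). Cdc25b moved furthest down this order, from rank 15 (86.3 CPM per kb) to rank 26 (58.3), and Cenpa from rank 8 (117) to rank 13 (97.4). The replicates were close: the median coefficient of variation of the 54 genes was 2.95% in Veh and 3.34% in GSK, beside 5.66% and 6.45% for all genes tested, and apart from Pttg1 the highest were 6.69% and 8.69%. Longer transcripts tended to have lower log2 fold changes, with a Spearman rho of -0.32 across the 54 genes, -0.21 across 95 other mitosis genes, 0.023 across 36 DNA replication genes and -0.10 across the tested genes with a length. This is a description across genes, which share their libraries and are not independent. Of the 27 genes shorter than 3.07 kb, 2 were higher and 2 lower, and of the 27 longer, 1 was higher and 6 were lower. Over all genes tested, 16.6% were higher and 15.5% lower, and the difference by length was not tested.

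**Figure D4:**
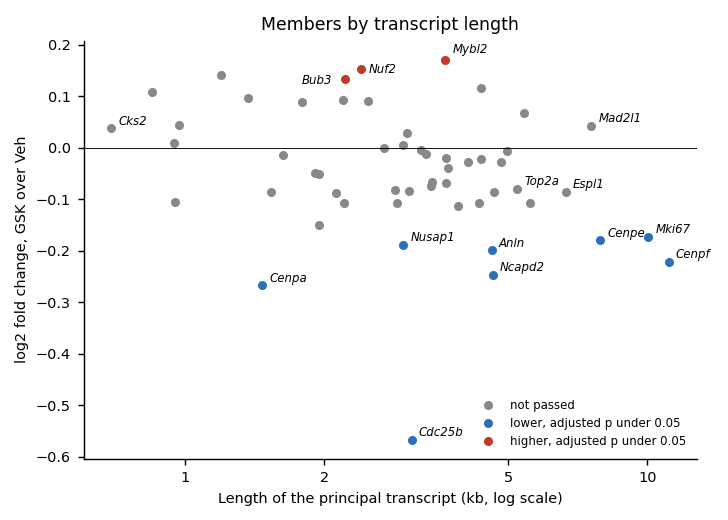
Log2 fold change, GSK over Veh, of the 54 genes against the length of the principal transcript (kb, log scale), colored by the call at an adjusted p under 0.05. Of the 8 genes that were lower, 6 are longer than 3.07 kb, with Cenpf, Mki67 and Cenpe at the far right, while Cdc25b lies near the middle and Cenpa among the shorter genes. Over all genes tested, 15.5% were lower.

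Of 95 further mitosis genes that were tested, 7 were higher and 14 lower (7.37% and 14.7%, against 16.6% and 15.5% of all genes tested). Their log2 fold changes lay between -0.38 and 0.35, so none passed both thresholds with edgeR, 35 had an unadjusted p under 0.05 (43% of all genes did), and their median log2 fold change was -0.03. The centromere gene Hjurp, the chaperone that deposits CENP-A, measured 536, 509 and 532 CPM in Veh and 412, 410 and 386 CPM in GSK (-0.38 ± 0.04, adjusted p = 2.78e-05). Lower genes of the other groups included the cohesin subunit Stag2 (-0.22), the anaphase-promoting complex activator Fzr1 (-0.22), the spindle pole genes Aspm (-0.20) and Numa1 (-0.18), the cytokinesis kinase Cit (-0.23) and the condensin II subunit Ncaph2 (-0.18). Higher genes included Gtse1 (0.32), a microtubule-binding protein of G2 phase, Haspin (0.29), a kinase of mitotic histone H3, Arpp19 (0.26), an inhibitor of the phosphatase PP2A-B55, Pmf1 (0.21), a kinetochore protein, Ran (0.20), the GTPase of spindle assembly, and Ube2s (0.15), a ubiquitin-conjugating enzyme of the anaphase-promoting complex.

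Of 36 genes of DNA replication, which acts before mitosis, 9 were higher (25%, against 16.6% of all genes tested) and 0 lower (against 15.5%), with a median log2 fold change of 0.12. At an unadjusted p under 0.05, 16 were higher and 0 lower, where 43% of all genes passed in either direction, and DESeq2 also called none lower. The smallest p belonged to Mcm2 (0.28 ± 0.05, adjusted p = 8.96e-04), a subunit of the replicative helicase, and to Uhrf1 (0.20 ± 0.05, adjusted p = 4.52e-03), which carries DNA methylation through replication. The number called higher ran from 4 to 17 when 1 sample was left out, with 4 without Veh 1 or GSK 1, 5 without GSK 3 and 17 without GSK 2. Of 12 tested G1 and S phase genes, 4 were higher and 1 lower (33.3% and 8.33%, against 16.6% and 15.5% of all genes tested), with a median of 0.14. Cyclin D2 (Ccnd2) measured 433, 458 and 411 CPM in Veh and 583, 583 and 570 CPM in GSK (0.42 ± 0.04, adjusted p = 2.48e-05), and its partner kinase Cdk6 rose by 0.38 ± 0.05 (adjusted p = 7.64e-05). E2f2, an activating E2F, was lower (-0.16 ± 0.04, adjusted p = 0.0126, a call lost without Veh 3). Whether these lists differed from the 54 genes was not tested.

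A list of 12 genes covered DREAM, a repressor of CHR promoters, its MuvB core, which MYBL2 complexes share, and the related Rb1, which is not a DREAM subunit. Of these 12, 2 were higher and 2 lower (16.7% each, against 16.6% and 15.5% of all genes tested). Tfdp2, a dimer partner of E2F factors, measured 33.9, 37.0 and 35.6 CPM in Veh and 24.5, 23.6 and 21.1 CPM in GSK. At -0.62 ± 0.08 (adjusted p = 9.32e-05) it was the only gene of the cell cycle lists examined here to pass both thresholds. Its paralog Tfdp1 was higher (0.24 ± 0.06, adjusted p = 0.00580), as was the MuvB subunit Lin54, which binds the CHR itself (0.16 ± 0.06, adjusted p = 0.0460). The pocket protein gene Rb1 was lower (-0.20 ± 0.05, adjusted p = 0.00818). The pocket protein genes of DREAM, Rbl1 (-0.05, adjusted p = 0.342) and Rbl2 (0.09, adjusted p = 0.129), did not pass. The higher count of 2 was 1 with DESeq2, 1 without Veh 1, Veh 2, GSK 1 or GSK 3, and 4 without GSK 2.

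**Figure D5:**
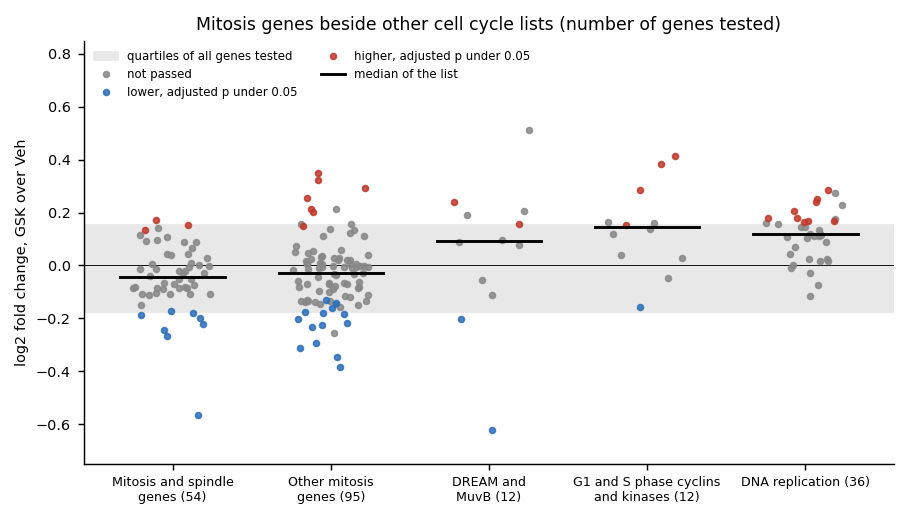
Log2 fold change, GSK over Veh, of every tested gene (points, colored by the call at an adjusted p under 0.05) in the mitosis and spindle genes and 4 other cell cycle lists, with the median of each list as a black bar and the quartiles of all genes tested as a gray band. The medians are -0.04 and -0.03 for the mitosis lists, 0.09 for DREAM and MuvB, 0.14 for G1 and S phase and 0.12 for DNA replication.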

How the data were processed

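RNA-seq was analysed for 3 GSK and 3 Veh samples. The authors trimmed reads with Trimmomatic, mapped them to GRCm38 with HISAT2 (2.1.0) and counted reads per gene with HTSeq (0.11.2), and the deposited values are these raw counts. The annotation release and the strand setting are not given in the sources used here, so genes with overlapping neighbours are uncertain.

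Groups were compared in R (4.3.3) with edgeR (4.0.16): TMM scaling, filterByExpr, robust quasi-likelihood test and Benjamini-Hochberg adjustment over 11698 genes. SEs and 95% intervals came from the test statistic. DESeq2 (1.42.0) was an alternative, and the other alternatives are named in the closing section. The test was checked on simulated counts. Lengths are those of the GENCODE vM21 principal transcripts. Gene positions and promoter windows are from RefSeq, GRCm38.p6, and printed windows hold at most 30 annotated exon bases. Members are matched by symbol.

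The members and lists were chosen with earlier results of these data known. Values in each sample were given for the largest change and the highest CPM of each role group, Mki67, Cdk1, Ccnb1, Aurkb, Top2a, Foxm1, Mybl2 and the Cks and B-type cyclin pairs, and of other lists the 2 smallest p in each direction, or those past both thresholds. Cenpf and Nuf2 were added because they passed. A gene that this rule names is not reported here. Samples come from 3 mice per group, and the sources do not say whether same-numbered samples share a mouse. The p-values weigh the difference between the groups against the variation among samples within a group, in a fit without pairing.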

Additional observations from a re-analysis of the deposited data

How the results depend on the processing

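DESeq2 left 53 of the 54 genes with the same direction and call, RLE size factors 54, no filter on low counts 53, at least 50 counts in 3 samples 51, total counts only 48 and upper-quartile scaling 42. Upper-quartile scaling gave 0 members higher, 14 lower and 1 lower past both thresholds (3, 8 and 0 with TMM), a member median of -0.079, 25 other mitosis genes lower (14 with TMM) and a median log2 fold change of other mitosis genes of -0.064. It moved the median of all genes to -0.0388, and total counts only to -0.0214. Tested against a fold change of 1.5, 0 members, other mitosis, DNA replication, G1 and S phase and DREAM and MuvB genes passed in either direction, Tfdp2 included, because that test asks for more than a difference from 0. The DREAM and MuvB genes higher (2) became 1 with DESeq2, upper-quartile scaling, total counts only, at least 50 counts and the replicate block. Signs turned for Ccna2 with upper quartiles (-0.031), total counts (-0.013) and at least 50 counts (-0.0036), for Birc5 with upper quartiles (-0.026) and total counts (-0.0083), for Prc1 with upper quartiles (-0.0056) and for Ncaph with DESeq2 (0.00062), no filter (0.00073) and the replicate block (7.4e-05). The cause was not tested, and none of these genes passed.

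Leaving out 1 sample at a time gave 0 to 6 members higher, 6 to 9 lower and 0 to 1 lower past both thresholds. The highest counts of members higher (6) came without GSK 2, and 0 came without Veh 1, GSK 1 or GSK 3. The member median ran from -0.056 to -0.022. Other mitosis genes gave 5 to 10 higher and 10 to 17 lower (median -0.037 to -0.022), DNA replication 4 to 17 higher (median 0.084 to 0.17), G1 and S phase 4 higher and 0 to 1 lower (median 0.090 to 0.17), and DREAM and MuvB 1 to 4 higher (median 0.070 to 0.12). Signs turned for Ccna2 (-0.027 to 0.025), Cks2 (-0.0037 to 0.084), Birc5 (-0.012 to 0.024), Incenp (-0.022 to 0.0081), Cdca8 (-0.033 to 0.010), Ube2c (-0.00054 to 0.076), Pttg1 (-0.52 to 0.44), Kif20a (-0.055 to 0.0047), Kif4 (-0.023 to 0.012), Kif18b (-0.035 to 0.027) and Ncaph (-0.033 to 0.034).

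Adding a replicate block by number, 52 of the 54 members kept direction and call, and Bub3 was lost (adjusted p = 0.0685). Deviations from the group means of same-numbered samples correlated across genes at -0.0515, -0.0814 and 0.164. Veh 1 correlated best with GSK 2 (0.223), Veh 2 with GSK 1 (0.114) and Veh 3 with GSK 3 (0.164). The numbers were therefore not taken to pair the samples, and the main fit is unpaired. A block by these best matches was not fitted, and whether a Veh and a GSK sample share a mouse was not tested. In only the 150 bases before the start, TTTGAA stood in 35.6% of members (20.5% of other mitosis genes and 6.71% of tested genes). TTTGAA and CCAAT stood there together in 31.1% (10.8% and 2.19%). This shorter window leaves out the bases after the start.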

Other observations

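The pattern of Pttg1, with Veh 2 and GSK 1 above the other 4 samples, was looked for in all genes after its values were seen. The ratio of the lower of these 2 samples to the highest of the other 4 was 1.87 for Pttg1, the second highest of the 11698 genes tested, after Apol10b (2.14) and before Gm7609 (1.84). Its neighbour Slu7 (chr11:43433726-43447982) measured 85.1, 79.6 and 88.9 CPM in Veh and 82.1, 75.1 and 71.2 CPM in GSK, and did not share it. The cause was not tested.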
